A study of Arabidopsis thaliana with 12 samples.

Results

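The transcriptome of Arabidopsis thaliana rosettes without CDK8 was compared with that of wild type, in plants whose JAZ genes are intact. Members were chosen by genotype: the 3 cdk8-1 libraries and the 3 Col-0 libraries, 6 of the 12 libraries in the series. cdk8-1 carries a mutant allele of CDK8 and no other named mutation, and Col-0 is the wild type. No other CDK8 allele is in the series, so effects of this allele and of other differences of the line cannot be told apart. The other 6 libraries come from jazD and jazDcdk8-1. jazD lacks 10 of the 13 JAZ repressors of jasmonate responses, and jazDcdk8-1 is named for the same cdk8-1 allele in that background. These 6 libraries served to read the loss of CDK8 again, with no plants shared with the first comparison. Whether jazDcdk8-1 and jazD differ by more than this allele was not tested. Rosettes were taken after 18 days on peat pellets followed by 7 days in soil, under 16 h of light and 8 h of darkness at 20 °C, and mutants shared trays with Col-0. Each library is a pool of about 20 whole rosettes without roots, and the 3 pools of a genotype were independent. In such bulk RNA, fewer cells of a type and less RNA per cell cannot be told apart.

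CDK8 is a cyclin-dependent kinase. Together with a C-type cyclin, MED12 and MED13 it forms the kinase module of Mediator, the complex that connects transcription factors with RNA polymerase II. The module docks reversibly on core Mediator, and its kinase phosphorylates transcription factors, so its loss can lower some transcripts and raise others. In Arabidopsis leaves CDK8 has been studied mainly in jasmonate and ethylene defense, in mitochondrial retrograde signaling and in cell wall and phenylpropanoid metabolism.

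CDK8 itself was low in every cdk8-1 library. CDK8 (AT5G63610, chromosome 5, 25463362 to 25465922 in RefSeq TAIR10.1) had 46, 53 and 55 counts in the cdk8-1 libraries, against 335, 370 and 406 counts in the Col-0 libraries. Scaled to library size (CPM, counts scaled to a common library total), this is a 7.32-fold lower level, with a log2 fold change of -2.87 ± 0.10 and an adjusted p of 7.98e-14 in edgeR's quasi-likelihood test (errors on log2 values are approximate standard errors throughout). Whether the remaining counts come from intact transcripts cannot be read from counts. Total counts of the 6 libraries ran from 18994055 to 20407951. Correlations of log2(CPM + 1) over genes were 0.9950 to 0.9955 within a genotype and 0.9862 to 0.9874 between cdk8-1 and Col-0. Leaf photosynthesis genes (45 measured) summed to 195900 to 219100 CPM in cdk8-1 and to 224800 to 239400 CPM in Col-0. Root markers (EXPA7, COBL9, CASP1, PRP3 and TIP2;3) summed to 0.150 to 0.192 CPM in cdk8-1 and to 0.0502 to 0.311 CPM in Col-0, with 0 of 5 above the filter on low counts, and 1 of 5 flower markers passed that filter.

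One cdk8-1 library stood apart in a small set of jasmonate genes. Of 17 genes with at least 50 CPM in jazD and at least 50 times the median of the 6 libraries, cdk8-1 replicate 3 was the highest of the 3 cdk8-1 libraries in 17. Its excess over the mean of replicates 1 and 2 had a median of 0.464% of the jazD level, with a range from 0.241% to 1.31% over the 17 genes. The same measure gave -0.25% and -0.22% for replicates 1 and 2, and 0.0839%, 0.0585% and -0.151% for the Col-0 libraries. The defensin gene PDF1.3 showed it most plainly, at 0.0499, 0.155 and 10.7 CPM in cdk8-1, against 2.18, 1.51 and 0.850 CPM in Col-0, with 2686 to 2994 CPM in jazD. ACT, which makes antifungal coumaroylagmatine, had 0, 0 and 2.11 CPM in cdk8-1, against 0.208, 0.953 and 0.450 CPM in Col-0. The source of this trace was not tested. Because of it, the counts for jasmonate lists and the changes of most named jasmonate genes are given with and without cdk8-1 replicate 3.

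**Figure D1:**
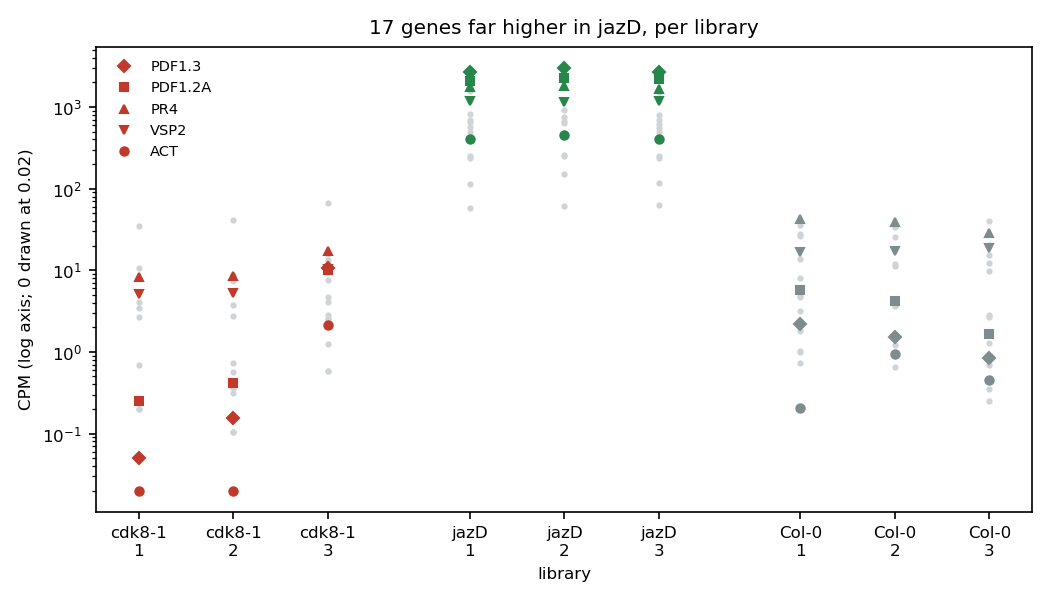
CPM of 17 genes in each cdk8-1, jazD and Col-0 library, on a log axis where 0 is drawn at 0.02; each point is a gene in a library, and 5 genes have symbols of their own. In cdk8-1 replicate 3 PDF1.3 sits at 10.7 CPM, against 0.0499 and 0.155 CPM in the other cdk8-1 libraries, while the jazD libraries hold 2686 to 2994 CPM.

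Between cdk8-1 and Col-0, 25.5% of the tested genes differed, mostly by small steps. Of 19059 tested genes, 2229 were higher (11.7%) and 2624 lower (13.8%) in cdk8-1 than in Col-0 at an adjusted p below 0.05. The counts of each gene list below are to be read against these shares. Large changes leaned downward: 189 genes (0.992%) were at least 2-fold higher and 471 (2.47%) at least 2-fold lower, and at 4-fold the counts were 29 and 102. In 181 of the 189 and 454 of the 471 the libraries of both genotypes did not overlap. Over all tested genes, every cdk8-1 library was above every Col-0 library in 18.0% and below in 19.5%, so such a separation in a single gene is common here. Genes named below were mostly picked from the called ones, so their lack of overlap is no separate support. The genes that changed 2-fold were low ones, with a median of 1.86 CPM for those higher and 1.43 CPM for those lower, against 13.4 CPM over all tested genes. Without cdk8-1 replicate 3, 1789 genes were higher and 2309 lower (9.29% and 12.0% of 19262), and 1673 of the 2229 and 2183 of the 2624 kept their call. With total counts in place of TMM scaling 3922 were higher and 1949 lower, so higher genes made up 66.8% of the calls instead of 45.93%. That scaling moved the median of all genes by 0.07 log2, and the counts of small changes depend on it.

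**Figure D2:**
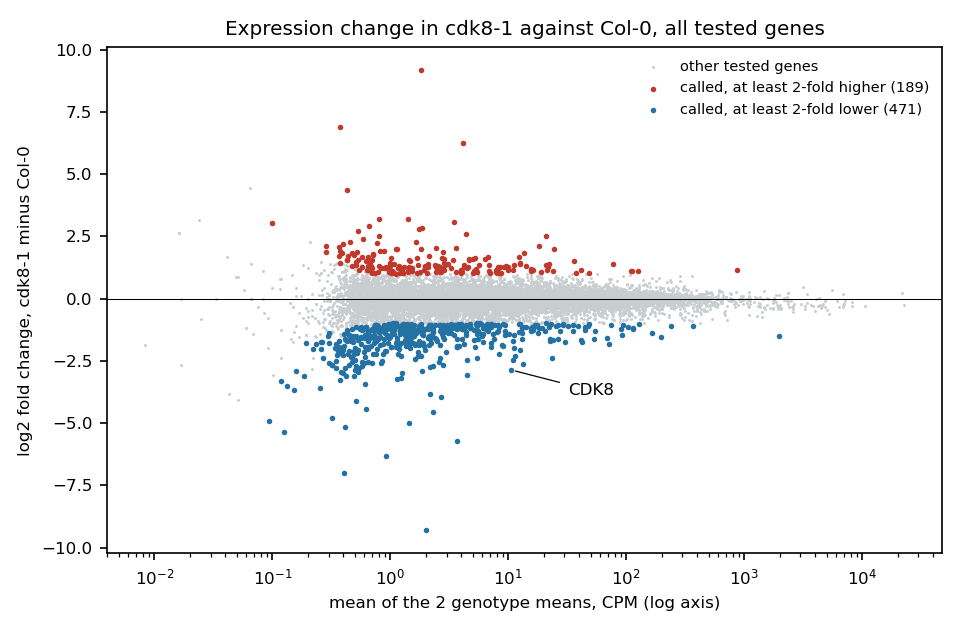
Log2 fold change in cdk8-1 against Col-0 (vertical axis) over the mean CPM of both genotypes (horizontal log axis), a point per tested gene. The 189 genes at least 2-fold higher are red and the 471 at least 2-fold lower are blue; most of both sit at low CPM.

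Among genes that averaged 5 CPM or more and whose libraries did not overlap, AT1G11070 rose most. AT1G11070, for which RefSeq notes a similarity to hydroxyproline-rich glycoproteins, had 33.9, 34.2 and 39.7 CPM in cdk8-1, against 5.24, 6.22 and 7.45 CPM in Col-0. It rose 5.69-fold (adjusted p = 1.34e-13), and the lowest cdk8-1 library was above every Col-0 library. AT1G62290, a saposin-like aspartyl protease gene, had 29.2, 31.7 and 28.2 CPM in cdk8-1, against 7.42, 5.92 and 7.30 CPM in Col-0, a 4.32-fold rise (adjusted p = 2.65e-13). AT5G62210, annotated as an embryo-specific protein with a lipase-type PLAT domain, had 37.7, 39.5 and 40.0 CPM in cdk8-1, against 11.2, 7.73 and 10.1 CPM in Col-0. Its rise was 4.04-fold (adjusted p = 1.28e-12). JAL22, a jacalin-type lectin gene, rose 3.59-fold, and AT3G62460, AT5G35935, scpl31, IDD16, AT5G57785, FLS1, AT2G43120 and AT3G28270 rose by 1.4 to 1.68 on the log2 scale. AT5G35935 is annotated as a pseudogene, scpl31 is named as a serine carboxypeptidase-like gene, and IDD16 encodes a zinc finger factor of the INDETERMINATE DOMAIN family. Of these 12 genes, 11 were also called higher in jazDcdk8-1 than in jazD, and AT3G28270 was lower there (-0.25, adjusted p = 0.0218).

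At the other end CDK8 itself fell most among genes that averaged 5 CPM or more and whose libraries did not overlap. AT1G15125, which encodes an S-adenosylmethionine-dependent methyltransferase, had 3.44, 2.74 and 4.75 CPM in cdk8-1, against 27.7, 25.7 and 15.3 CPM in Col-0. It fell 6.23-fold (adjusted p = 9.68e-10) and belongs to the 17 genes that carried the trace in cdk8-1 replicate 3; without that library the log2 change was -2.88. MRU1, named for its response in the mto1 methionine mutant, had 3.54, 4.03 and 2.59 CPM in cdk8-1, against 20.2, 15.9 and 19.3 CPM in Col-0, a 5.46-fold fall (adjusted p = 1.54e-11). MBP2, a myrosinase-binding protein gene, had 3.19, 2.22 and 3.36 CPM in cdk8-1, against 15.8, 12.9 and 13.0 CPM in Col-0 (4.72-fold lower, adjusted p = 1.54e-11). AT3G57880, annotated as a calcium-dependent lipid-binding protein, was 4.95-fold lower in cdk8-1 than in Col-0. Its values were 4.24, 3.05 and 4.13 CPM in cdk8-1, against 19.2, 19.8 and 17.7 CPM in Col-0. In the jazD background AT3G57880 was not low: it averaged 22.2 CPM in jazDcdk8-1 and 17.3 CPM in jazD, and the difference between the backgrounds was 2.67 ± 0.13 log2 (adjusted p = 6.44e-12). TAT3, AT1G64360, PR1, AT4G27300 (an S-locus lectin kinase gene), ATSBT5.2 (a subtilase gene), PCS1 (an aspartic protease gene) and AT2G15960 complete the 12 lowest, with falls of 1.89 to 2.39 on the log2 scale.

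**Figure D3:**
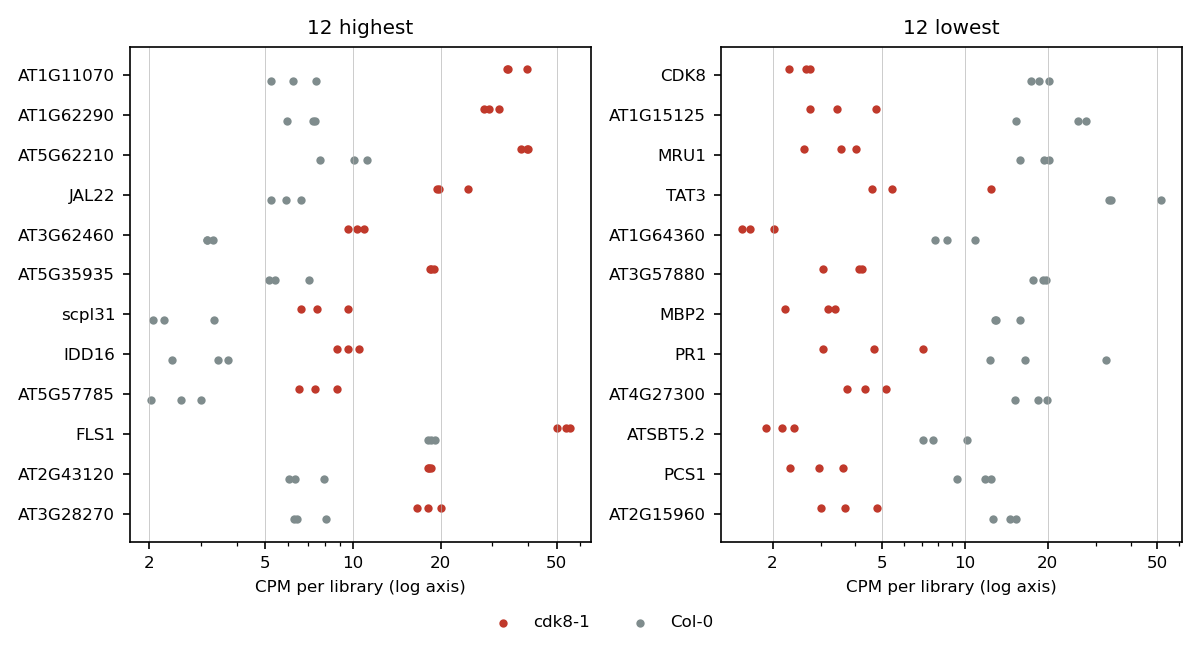
CPM per library on a log axis for the 12 genes with the largest rise and the 12 with the largest fall, each averaging 5 CPM or more; red points are the 3 cdk8-1 libraries and grey points the 3 Col-0 libraries. The colors do not overlap in any of the 24 genes, which is a condition of the choice.

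The partners of CDK8 moved little. AT5G48640, annotated as a cyclin family protein and known as a C-type cyclin, had 12.2, 12.9 and 12.5 CPM in cdk8-1, against 9.81, 9.08 and 10.7 CPM in Col-0 (0.35 ± 0.10 log2, adjusted p = 0.0112). That call was lost without Col-0 replicate 2 (0.29, adjusted p = 0.0621). The neighboring cyclin gene AT5G48630 (0.15 ± 0.08, adjusted p = 0.182), MED12 (0.00 ± 0.06, adjusted p = 0.973) and GCT, the MED13 gene (-0.07 ± 0.07, adjusted p = 0.564), were not called. AT5G48630 was called higher without Col-0 replicate 3 (0.25, adjusted p = 0.0287) and with total counts (0.23, adjusted p = 0.0414). Of 17 subunit genes of core Mediator, 0 were called by edgeR with TMM scaling or by DESeq2, and 2 were called higher with total counts. Their log2 changes ran from -0.20 to 0.29, with an unadjusted p below 0.05 in 4.

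Many salicylic acid defense genes were lower in cdk8-1. Salicylic acid is made from chorismate and drives resistance to biotrophic pathogens, with PR1 as its classical marker. Of 27 tested genes of its synthesis and signaling, 17 fell and 0 rose, where 13.8% of all tested genes fell. Their median was -0.61 log2, against 0.00 over all tested genes, and without cdk8-1 replicate 3, 16 fell. With total counts 14 fell and 1 rose, and with limma on log2(TPM + 1) 12 fell. The synthesis gene ICS1 (-0.14 ± 0.10, adjusted p = 0.350), PR5 (-0.03 ± 0.20, adjusted p = 0.934) and the receptor gene NPR1 (-0.04 ± 0.07, adjusted p = 0.737) were not called. PR1 had 3.04, 7.03 and 4.66 CPM in cdk8-1, against 32.5, 16.6 and 12.4 CPM in Col-0 (4.17-fold lower, adjusted p = 0.00249). The Col-0 pools thus differed among themselves, yet each was above each cdk8-1 pool. EDS5, which exports the salicylic acid precursor from plastids, had 2.00, 2.48 and 3.41 CPM in cdk8-1, against 4.88, 5.62 and 7.197 CPM in Col-0 (2.24-fold lower, adjusted p = 9.84e-05). NIMIN2, an interactor of the receptor NPR1, had 1.098, 0.517 and 1.01 CPM in cdk8-1, against 1.97, 1.91 and 1.75 CPM in Col-0. It fell 2.13-fold (adjusted p = 0.00639), and GRXS13, a glutaredoxin gene, fell by 1.31 ± 0.25 on the log2 scale. ALD1, the first enzyme of pipecolic acid synthesis for systemic immunity, had 0.200, 0.258 and 0.384 CPM in cdk8-1, against 1.61, 2.21 and 2.95 CPM in Col-0 (7.85-fold lower, adjusted p = 1.22e-05), and 1 of 3 pipecolic acid genes passed the test (FMO1 was at -2.81, adjusted p = 0.0546). The genotypes did not overlap in PR1, EDS5, NIMIN2 or ALD1, as was so for 19.5% of all tested genes in this direction.

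Camalexin genes fell with them. Camalexin is the main indole phytoalexin of Arabidopsis, made through CYP71A13 and PAD3 under the control of WRKY33. Of 6 tested genes 5 fell and 0 rose (median -1.43), and without cdk8-1 replicate 3 also 5 and 0 (median -1.57). PAD3 had 0.349, 0.672 and 0.817 CPM in cdk8-1, against 3.74, 4.32 and 3.95 CPM in Col-0 (6.46-fold lower, adjusted p = 0.000742). CYP71A13 had 0.699, 1.19 and 1.63 CPM in cdk8-1, against 4.31, 3.71 and 3.05 CPM in Col-0 (3.12-fold lower, adjusted p = 0.00922). WRKY33 had 10.53, 8.94 and 9.32 CPM in cdk8-1, against 18.6, 26.0 and 24.3 CPM in Col-0, and fell 2.4-fold (adjusted p = 3.67e-07). For all 3 genes the genotypes did not overlap. Genes of touch and early stress, which respond within minutes to handling, fell too: 6 of 11 fell and 1 rose (median -0.88). CML12, a touch-induced calmodulin-like gene, had 26.2, 28.2 and 23.97 CPM in cdk8-1, against 73.8, 92.6 and 74.0 CPM in Col-0 (3.07-fold lower, adjusted p = 6.01e-09). WRKY40 fell 4.19-fold (adjusted p = 0.000153) and WRKY53 2.53-fold (adjusted p = 0.0016), from means of 3.21 and 4.49 CPM in Col-0. The summed level of the touch list was 107 to 112 CPM in cdk8-1 and 149.9 to 204 CPM in Col-0. Its part in the fall of salicylic acid and camalexin genes was not tested.

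WRKY factors bind the W-box, and the named genes of the salicylic acid, camalexin and touch lists that fell at least 2-fold with 2 or more W-boxes in the 250 bases before their start are shown to let the letters be read beside their values. PR1, GRXS13, PAD3, CYP71A13, CML12 and WRKY40, named genes of the same lists that also fell at least 2-fold, had fewer than 2 W-boxes there and are not shown. Capitals mark TTGACC or TTGACT on either strand (GGTCAA and AGTCAA when read on the other). Sequences are from RefSeq TAIR10.1, on the strand of the gene, and end at the base before the annotated start.
EDS5 (chr4:18185187-18185436, plus strand): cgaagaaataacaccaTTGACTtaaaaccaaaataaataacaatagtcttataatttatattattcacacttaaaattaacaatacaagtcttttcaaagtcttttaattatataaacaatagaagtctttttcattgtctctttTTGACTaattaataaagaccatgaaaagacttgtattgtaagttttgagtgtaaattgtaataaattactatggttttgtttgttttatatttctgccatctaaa
NIMIN2 (chr3:9471040-9471289, minus strand): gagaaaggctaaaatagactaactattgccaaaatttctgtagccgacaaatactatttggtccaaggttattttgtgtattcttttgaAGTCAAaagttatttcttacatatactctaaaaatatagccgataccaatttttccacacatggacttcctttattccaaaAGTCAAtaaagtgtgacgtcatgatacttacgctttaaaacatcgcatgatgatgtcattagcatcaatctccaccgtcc
WRKY33 (chr2:16107985-16108234, plus strand): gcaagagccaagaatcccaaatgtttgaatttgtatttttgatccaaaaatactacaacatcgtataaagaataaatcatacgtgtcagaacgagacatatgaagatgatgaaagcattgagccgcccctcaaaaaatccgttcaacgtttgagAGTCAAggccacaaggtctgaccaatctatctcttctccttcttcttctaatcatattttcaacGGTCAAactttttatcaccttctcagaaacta
WRKY53 (chr4:12393983-12394232, minus strand): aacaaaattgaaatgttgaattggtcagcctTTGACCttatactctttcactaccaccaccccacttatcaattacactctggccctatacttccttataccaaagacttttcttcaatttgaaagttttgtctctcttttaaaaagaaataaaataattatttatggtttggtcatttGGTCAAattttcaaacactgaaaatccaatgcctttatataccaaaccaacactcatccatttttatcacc
The matches begin 234 and 105 bases before the start in EDS5, 161 and 80 in NIMIN2, 96 and 32 in WRKY33, and 219 and 71 in WRKY53. Windows with 2 or more such matches made up 9.36% of the genes at least 2-fold lower, 4.76% of those at least 2-fold higher and 5.91% of all 18986 windows. At least 1 W-box, in windows of 300 bases that reach 50 bases past the start, was found in 39.6%, 36.5% and 32.3% of the same sets. A TATA match (TATAAA) was found in 56.6% of the lower set, 64.6% of the higher set and 50.7% of all, and the evening-element core (AATATCT) in 15.3%, 17.5% and 11.9%. The G-box (CACGTG) was found in 7.87% of the lower set, 5.82% of the higher set and 8.79% of all, the GCC box (GCCGCC) in 2.55%, 1.06% and 2.69%, the CRT (CCGAC) in 13.6%, 8.99% and 16.3%, and the ABRE (ACGTGTC) in 5.11%, 4.76% and 4.95%. A match is a run of letters and does not show binding. ABRE and G-box matches can overlap in sequence.

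Jasmonate wound genes fell in cdk8-1, a line whose JAZ genes are intact. Jasmonoyl-isoleucine triggers the removal of JAZ proteins and so frees MYC factors, which activate wound genes, and ERF factors, which activate defensins. Of 15 genes of the MYC branch 13 fell and 0 rose (median -1.27), and without cdk8-1 replicate 3, 12 fell (median -1.34). TAT3, a wound-induced aminotransferase gene, had 5.44, 4.60 and 12.5 CPM in cdk8-1, against 33.4, 34.0 and 51.6 CPM in Col-0 (5.24-fold lower, adjusted p = 9.92e-07). cdk8-1 replicate 3 was the highest of its genotype and still below the Col-0 pools; without it the log2 change was -2.98. TPS03, which makes the volatile ocimene, had 0.599, 0.620 and 1.06 CPM in cdk8-1, against 3.63, 5.02 and 5.95 CPM in Col-0 (6.34-fold lower, adjusted p = 7.3e-08; log2 change -2.66, and -2.99 without replicate 3). VSP2, a vegetative storage protein gene, had 5.09, 5.22 and 10.4 CPM in cdk8-1, against 16.8, 17.3 and 18.9 CPM in Col-0 (2.54-fold lower, adjusted p = 2.45e-06; log2 change -1.34, and -1.78 without replicate 3). NATA1, an acetyltransferase gene of ornithine metabolism, had 0.200, 0.724 and 2.498 CPM in cdk8-1, against 4.77, 3.76 and 2.85 CPM in Col-0. Its log2 change was -1.70 ± 0.36 with all libraries and -3.03 without cdk8-1 replicate 3. The genotypes did not overlap in TAT3, TPS03, VSP2 or NATA1, and VSP2 and NATA1 are among the 17 genes that carried the trace.

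The defensin branch depends on that library. With all 3 cdk8-1 libraries 5 of 15 tested ERF-branch genes fell (median -0.12), and without replicate 3, 8 of 16 fell (median -2.00); 0 rose in either. PDF1.2A, the defensin gene most used as a marker, had 0.249, 0.413 and 10.2 CPM in cdk8-1, against 5.66, 4.21 and 1.65 CPM in Col-0. With all libraries it did not pass the test (-0.04 ± 0.64, adjusted p = 0.976), and without replicate 3 the log2 change was -3.51 (adjusted p = 0.000239). PR4, a chitin-binding protein gene, had 8.33, 8.58 and 17.44 CPM in cdk8-1, against 42.5, 38.7 and 28.8 CPM in Col-0 and fell in both fits (-1.67 ± 0.17, adjusted p = 2.8e-07; without replicate 3 -2.12). PR4 was lower in every cdk8-1 library than in any Col-0 library, whereas PDF1.2A overlapped through replicate 3. AT3G23550, a MATE-type transporter gene, had 0.249, 0.155 and 1.25 CPM in cdk8-1, against 4.67, 4.12 and 2.70 CPM in Col-0 (-2.74 ± 0.34, adjusted p = 2.87e-06). It is also among the 17 genes that carried the trace, and without replicate 3 the log2 change was -4.19. ERF5 and PR3 also fell (-1.86 ± 0.35 and -1.32 ± 0.20), and without replicate 3 their values were -1.88 and -1.43. PDF1.2A, PDF1.2B, PDF1.2C and PDF1.3 are near-identical copies, so how reads divide between them is uncertain.

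Genes that make jasmonate changed in both directions, and those that break it down fell. Of 14 jasmonate synthesis genes 6 fell and 2 rose (median -0.02; 5 and 5 with total counts), and without cdk8-1 replicate 3, 5 fell and 2 rose (median -0.04). LOX4, a 13-lipoxygenase gene, had 2.79, 3.31 and 3.27 CPM in cdk8-1, against 8.04, 7.68 and 8.50 CPM in Col-0 (2.58-fold lower, adjusted p = 1.01e-07; log2 change -1.37, and -1.4 without replicate 3). LOX2, which supplies most wound jasmonate, differed far less, at 457, 449.9 and 500.3 CPM in cdk8-1, against 565, 573 and 556 CPM in Col-0 (-0.27 ± 0.05, adjusted p = 0.000159; -0.32 without replicate 3). Of 8 genes of jasmonate breakdown 6 fell and 0 rose (median -0.94), and without replicate 3 also 6 and 0 (median -0.89), though not the same 6. CYP94C1, a cytochrome P450 gene, lost its call (-0.89 with all libraries; -0.73, adjusted p = 0.0519, without replicate 3), and AT2G38240 gained one (-1.05, adjusted p = 0.0983, with all; -1.85, adjusted p = 0.0158, without). ILL6, an amidohydrolase that cleaves jasmonate conjugates, had 5.09, 4.45 and 5.38 CPM in cdk8-1, against 8.87, 11.2 and 9.50 CPM in Col-0 (1.98-fold lower, adjusted p = 3.17e-07; log2 change -0.99, and -1.05 without replicate 3). In LOX4, LOX2 and ILL6 every cdk8-1 library was below every Col-0 library. JRG21, a jasmonate oxidase gene, had 0.798, 1.396 and 2.88 CPM in the cdk8-1 libraries; its log2 change was -1.38 ± 0.25 with all libraries and -2.02 without replicate 3. ST2A, a sulfotransferase gene, was at -1.11 ± 0.24, and at -1.26 without replicate 3. Of 12 tested JAZ genes 2 fell and 1 rose, with and without replicate 3, a share close to the 25.5% called over all tested genes. The largest change that passed was in JAZ1, which had 5.64, 6.20 and 7.01 CPM in cdk8-1, against 10.6, 11.8 and 11.9 CPM in Col-0 (1.82-fold lower, adjusted p = 2.15e-05; log2 change -0.87, and -0.95 without replicate 3). Of 10 receptor and transcription factor genes 3 rose and 1 fell, with and without replicate 3: MYC3 (0.30 ± 0.05), the co-repressor gene TPL (0.28 ± 0.05) and its adaptor NINJA (0.23 ± 0.05) rose, and the value for MYC2 was -0.33 ± 0.07, a call that limma on log2(TPM + 1) did not make (-0.23, adjusted p = 0.0546).

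Most flavonoid genes rose. Flavonols and anthocyanins are phenylalanine-derived pigments that screen ultraviolet light. Of 23 tested genes 14 rose and 3 fell (median 0.63). FLS1, flavonol synthase, had 49.99, 55.6 and 54.0 CPM in cdk8-1, against 18.1, 19.1 and 18.5 CPM in Col-0 (2.87-fold higher, adjusted p = 3.27e-13). MYB111, an activator of flavonol genes, had 6.54, 5.69 and 6.05 CPM in cdk8-1, against 2.75, 1.96 and 2.4 CPM in Col-0 (2.57-fold higher, adjusted p = 1.48e-06). CHIL, which assists chalcone synthase, had 28.7, 31.3 and 28.2 CPM in cdk8-1, against 13.8, 12.8 and 12.8 CPM in Col-0 (2.23-fold higher, adjusted p = 1.09e-09). CHS itself, the entry enzyme, rose 1.79-fold, with 232 to 249 CPM in cdk8-1 and 126 to 146 CPM in Col-0. MYBL2, a repressor of anthocyanin genes, went the other way, with 59.1, 62.4 and 60.8 CPM in cdk8-1, against 129.6, 122 and 134 CPM in Col-0 (2.12-fold lower, adjusted p = 2.62e-11). In each of these 5 genes every cdk8-1 library lay on one side of every Col-0 library.

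General phenylpropanoid genes shared part of this rise: 7 of 20 rose and 3 fell (median 0.13; 11 and 3 with total counts). PAL1, phenylalanine ammonia-lyase, had 185, 172 and 166 CPM in cdk8-1, against 114, 122 and 115 CPM in Col-0 (1.49-fold higher, adjusted p = 4.19e-08). 4CL3, the coumarate ligase gene tied to flavonoids, rose by 0.73 ± 0.07 and the lignin methyltransferase gene CCOAOMT1 by 0.39 ± 0.04. KFB50, an F-box protein that marks PAL enzymes for breakdown, had 72.9, 84.6 and 78.2 CPM in cdk8-1, against 119.8, 115 and 100.5 CPM in Col-0 (1.42-fold lower, adjusted p = 2.07e-06). PAL1 and KFB50 each separated the genotypes without overlap. KFB20, a relative of KFB50, fell by 0.46 ± 0.09, so 2 of 3 tested KFB genes fell and 0 rose.

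ER bodies are compartments that hold the myrosinase-like PYK10 and its binding partners. Of 15 tested genes 7 rose and 1 fell (median 0.31). PYK10 had 118, 106 and 114 CPM in cdk8-1, against 36.5, 45.9 and 46.2 CPM in Col-0 (2.63-fold higher, adjusted p = 3.38e-11). PBP1, which binds PYK10, had 64.0, 65.3 and 68.3 CPM in cdk8-1, against 40.0, 47.1 and 45.4 CPM in Col-0 (1.49-fold higher, adjusted p = 2.53e-07). Both genes were higher in each cdk8-1 library than in any Col-0 library. JAL33 rose by 1.28 ± 0.16 and GLL23, a GDSL lipase-like gene, by 0.53 ± 0.07. In the jazD background PYK10 (-0.52, adjusted p = 3.2e-06), PBP1 (-1.41, adjusted p = 5.49e-15), JAL33 (-1.02, adjusted p = 5.86e-09) and GLL23 (-1.65, adjusted p = 9.57e-16) were lower in jazDcdk8-1 than in jazD.

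Glucosinolate genes changed in both directions. Of 27 aliphatic genes 7 rose and 12 fell (median -0.13). MAM3, which elongates methionine side chains, had 45.2, 42.0 and 40.7 CPM in cdk8-1, against 22.7, 25.3 and 19.3 CPM in Col-0 (1.90-fold higher, adjusted p = 1.96e-07). CYP79F2, which acts on long-chain substrates, had 4.24, 3.57 and 4.23 CPM in cdk8-1, against 8.72, 9.84 and 7.30 CPM in Col-0 (2.14-fold lower, adjusted p = 4.19e-06). AOP2, a side-chain dioxygenase gene, fell by 0.73 ± 0.07 and GSTF11 by 0.69 ± 0.11. Of 20 indole genes 4 rose and 8 fell (median -0.06, and 0.01 with total counts). CYP81F4, which hydroxylates the indole ring, had 3.54, 2.22 and 3.602 CPM in cdk8-1, against 7.73, 8.53 and 10.2 CPM in Col-0 (2.82-fold lower, adjusted p = 9.07e-08). CYP81F2, needed for the indole glucosinolates of fungal defense, had 0.699, 0.569 and 0.576 CPM in cdk8-1, against 2.75, 3.56 and 2.85 CPM in Col-0 (4.93-fold lower, adjusted p = 9.87e-06). The methyltransferase genes IGMT1 and IGMT2 fell by 1.26 ± 0.21 and 1.81 ± 0.40. These 4 enzymes modify the ring after the core is made, and CYP81F4 and CYP81F2, like MAM3 and CYP79F2, showed no overlap between the genotypes. In tryptophan synthesis 2 of 13 genes rose and 1 fell, no larger a share than the 25.5% called over all tested genes. The 1 that fell was ASA1, the entry enzyme (-0.46 ± 0.08). Without cdk8-1 replicate 3, 1 rose and 2 fell, ASA2 among them (-0.23, adjusted p = 0.0225).

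**Figure D4:**
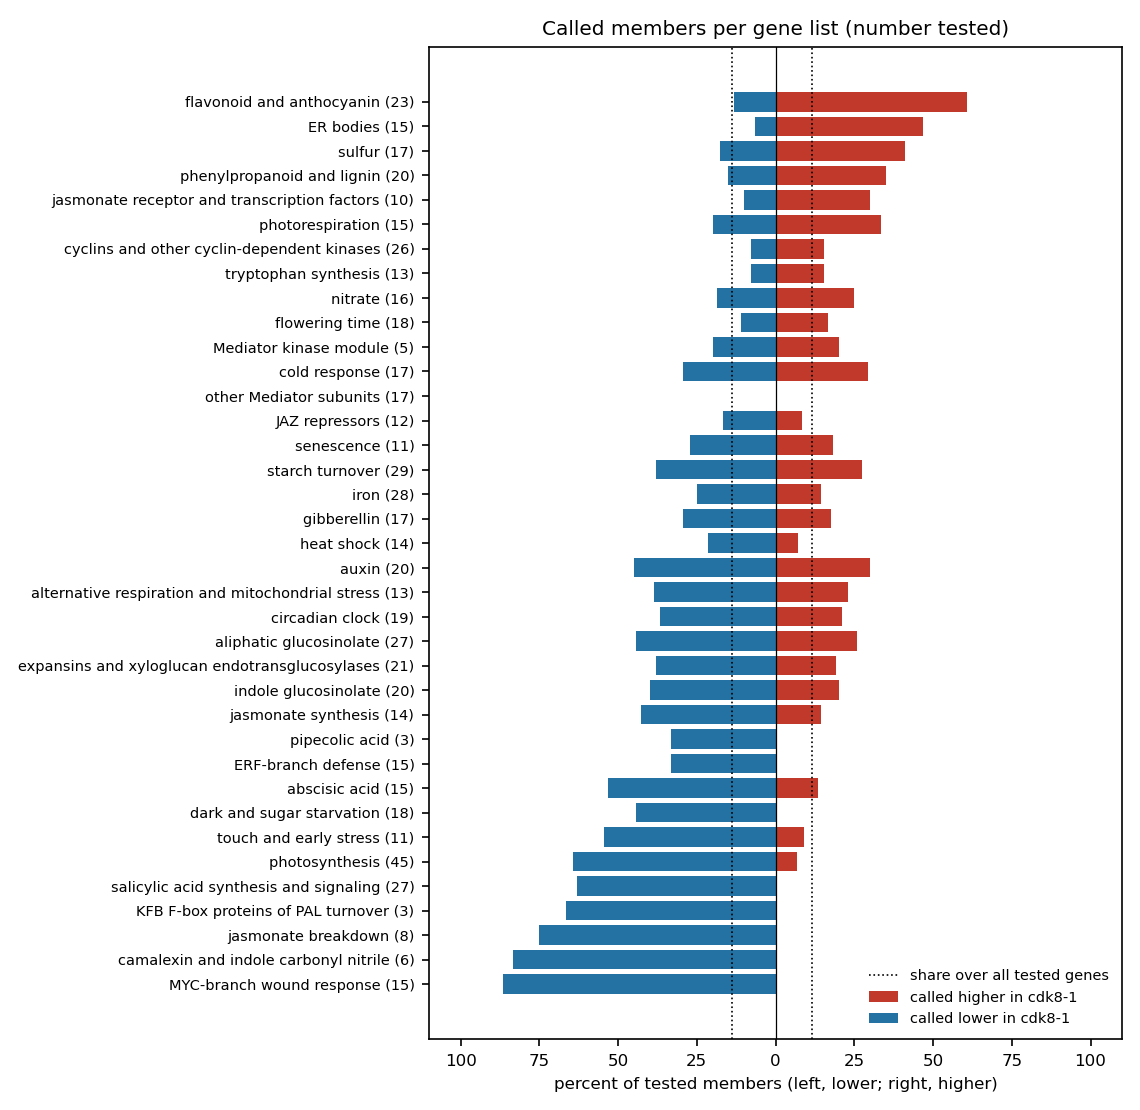
Share of tested members called higher (right, red) and lower (left, blue) in cdk8-1 against Col-0 for each gene list with at least 3 tested members, with dotted lines at the shares over all tested genes (11.7% and 13.8%). Flavonoid and ER body genes extend to the right, and MYC-branch, camalexin, jasmonate breakdown and salicylic acid genes to the left.

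Photosynthesis genes were slightly lower. Of 45 genes of the photosystems, antenna and Rubisco, 29 fell and 3 rose (median -0.25), and with total counts 27 fell and 5 rose (median -0.18). LHCB1.4, an antenna protein gene with several close copies among which the division of reads is uncertain, had 3837, 4566 and 4008 CPM in cdk8-1, against 6649, 5834 and 6589 CPM in Col-0 (1.54-fold lower, adjusted p = 2.41e-07). PSAF, a subunit of photosystem I, had 3085, 3467 and 3337 CPM in cdk8-1, against 4695, 4330 and 4841 CPM in Col-0 (1.4-fold lower, adjusted p = 6.11e-07). No Col-0 library was as low as a cdk8-1 library in either gene. LHCA3 and PSAD2, both of photosystem I, fell by 0.44 ± 0.05 and 0.43 ± 0.06. The Rubisco gene RBCS1A went the other way, at 22240, 24480 and 23980 CPM in cdk8-1, against 20180, 18070 and 21460 CPM in Col-0 (0.24 ± 0.07, adjusted p = 0.00989; without Col-0 replicate 2 0.18, adjusted p = 0.0639). Photorespiration genes took both directions, 5 higher and 3 lower of 15, with the aminotransferase gene GGAT1 down by 0.37 ± 0.04 and the glycine decarboxylase gene GLDP2 up by 0.34 ± 0.04.

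Many genes of carbon and nitrogen use changed. BAM5, a beta-amylase outside the plastid, had 0.299, 0.207 and 0.432 CPM in cdk8-1, against 6.02, 4.52 and 4.65 CPM in Col-0 (15.7-fold lower, adjusted p = 6.89e-11). BAM3, the main beta-amylase of leaf starch breakdown, had 281, 275 and 261 CPM in cdk8-1, against 161, 176 and 179 CPM in Col-0 (1.58-fold higher, adjusted p = 9.5e-10). Of the 29 starch genes 8 rose and 11 fell (9 and 5 with total counts). Sugar starvation genes fell, 8 of 18 with 0 higher (median -0.32). SEN1, induced in the dark, had 3.84, 5.01 and 6.53 CPM in cdk8-1, against 16.4, 19.5 and 14.7 CPM in Col-0 (3.27-fold lower, adjusted p = 1.01e-08). ASN1, asparagine synthetase, had 10.2, 9.41 and 12.3 CPM in cdk8-1, against 31.8, 30.3 and 41.1 CPM in Col-0 (3.22-fold lower, adjusted p = 5.81e-10). Both are known to be low in well-fed leaves, and neither overlapped between the genotypes. Of 16 nitrate genes 4 rose and 3 fell (6 and 3 with total counts). The nitrate reductase gene NIA1 had 219.5, 205 and 211 CPM in cdk8-1, against 110.2, 109 and 139 CPM in Col-0 (1.77-fold higher, adjusted p = 1.3e-08), the nitrite reductase gene NIR1 rose by 0.70 ± 0.04 and the transporter gene NRT1.1 by 0.56 ± 0.05. Of 17 sulfur genes 7 rose and 3 fell (median 0.26). APR3, which reduces activated sulfate, had 48.3, 47.9 and 43.1 CPM in cdk8-1, against 22.4, 25.6 and 22.6 CPM in Col-0 (1.97-fold higher, adjusted p = 1.94e-09).

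The ferritin gene FER1 and some iron regulator genes fell. FER1, the leaf ferritin gene, had 38.9, 54.7 and 53.9 CPM in cdk8-1, against 137, 154 and 118 CPM in Col-0 (2.77-fold lower, adjusted p = 7.49e-10). BHLH100, a regulator induced by iron shortage, had 0, 0.258 and 0.0961 CPM in cdk8-1, against 0.830, 1.41 and 0.600 CPM in Col-0 (-2.96 ± 0.59, adjusted p = 0.000741). Ferritin genes rise with iron and BHLH100 rises without it, yet FER1 and BHLH100 were both low. BHLH100 rests on 7 counts over the cdk8-1 libraries and 56 over the Col-0 libraries. Among other ferritin genes FER4 fell less (-0.27 ± 0.07, adjusted p = 0.00729) and FER3 was not called (0.14 ± 0.07, adjusted p = 0.117). The regulator genes BHLH38 (-2.57 ± 0.49, adjusted p = 0.000494) and FIT (-0.70 ± 0.24, adjusted p = 0.0390) fell as well. Without cdk8-1 replicate 3 the call of FIT was lost (-0.74, adjusted p = 0.0710). NAS1 and NAS4, nicotianamine synthases of iron transport, rose by 0.72 ± 0.08 and 0.51 ± 0.09. Of 28 iron genes 4 rose and 7 fell (6 and 5 with total counts).

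Clock genes changed in both directions. FKF1, an evening light receptor, had 2.99, 5.43 and 3.65 CPM in cdk8-1, against 6.17, 9.73 and 11.8 CPM in Col-0 (2.31-fold lower, adjusted p = 8.93e-05). ELF4, of the evening complex, and PRR5, a pseudo-response regulator, fell by 1.2 ± 0.23 and 0.83 ± 0.14, while the morning gene RVE8 rose by 0.65 ± 0.11 and LHY by 0.62 ± 0.10. FKF1 and PRR5 also varied among the Col-0 pools, PRR5 from 34.6 to 61.7 CPM. Of 19 clock genes 4 rose and 7 fell (6 and 5 with total counts). The labels give no time of harvest for a library, and the part of harvest time was not tested.

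Most of the stress and hormone lists held a larger share of called genes than the 25.5% over all tested genes, with large changes in some members. In cold response 5 of 17 genes rose and 5 fell: COR47, a dehydrin gene, had 342, 398 and 378 CPM in cdk8-1, against 193, 198 and 199.5 CPM in Col-0 (1.89-fold higher, adjusted p = 9.27e-12), KIN1, close in sequence to KIN2 so that the division of reads is uncertain, rose by 2.82 ± 0.37, and COR413IM1, a chloroplast membrane protein gene, fell by 1.3 ± 0.09. Abscisic acid genes were mostly lower, 8 of 15 with 2 higher (median -0.21). RAB18, a dehydrin gene that marks the hormone, had 3.49, 3.98 and 3.22 CPM in cdk8-1, against 7.78, 6.72 and 7.10 CPM in Col-0 (2.02-fold lower, adjusted p = 1.27e-05), and NCED3, the rate-limiting synthesis gene, fell by 0.96 ± 0.16. Among 20 auxin genes 6 rose and 9 fell, with YUC2, an auxin synthesis gene, up by 1.26 ± 0.14 on the log2 scale and the repressor gene IAA6 down by 1.79 ± 0.31. RGL3, a DELLA growth repressor, fell by 1.67 ± 0.22 among 17 gibberellin genes, of which 3 rose and 5 fell. EXPA8, an expansin, had 89.6, 99.8 and 95.2 CPM in cdk8-1, against 192, 183 and 193 CPM in Col-0 (1.99-fold lower, adjusted p = 1.26e-10). XTH24, a xyloglucan-remodeling enzyme, had 134, 124 and 112 CPM in cdk8-1, against 65.3, 69.5 and 59.5 CPM in Col-0 (1.90-fold higher, adjusted p = 3.98e-10). COR47, RAB18, EXPA8 and XTH24 separated the genotypes in every library. Of 21 expansin and xyloglucan genes 4 rose and 8 fell. Of 14 heat shock genes 1 rose and 3 fell, and of 11 senescence genes 2 rose and 3 fell (4 and 2 with total counts), with the factor gene NAP at -1.46 ± 0.28. The sugar transporter gene SWEET15 went the other way and changed most in the senescence list, with 42, 27 and 18 counts in cdk8-1, against 1, 6 and 2 counts in Col-0 (3.20 ± 0.48 log2, adjusted p = 2.99e-05). The share of heat shock genes called, 4 of 14, is close to the 25.5% over all tested genes.

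Mitochondrial stress signaling has been tied to CDK8 through AOX1A, the stress-induced alternative oxidase gene. AOX1A had 44.5, 41.9 and 43.2 CPM in cdk8-1, against 40.9, 37.3 and 40.6 CPM in Col-0, and was not called (0.12 ± 0.05, adjusted p = 0.0901; with total counts 0.20, adjusted p = 0.00993). Its paralog AOX1C had 1.65, 1.65 and 1.1 CPM in cdk8-1, against 0.363, 0.703 and 0.550 CPM in Col-0 (2.69-fold higher, adjusted p = 0.0014). OM66, an outer mitochondrial membrane protein, had 3.59, 3.93 and 4.13 CPM in cdk8-1, against 9.29, 9.88 and 9.50 CPM in Col-0 (2.46-fold lower, adjusted p = 3.93e-05). The libraries of the genotypes did not overlap in AOX1A, AOX1C or OM66. Of the 13 genes of this list 3 rose and 5 fell (6 and 3 with total counts).

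The repressor genes MAF5 and SMZ had the largest changes among the tested genes of the flowering list. Its share of called genes was close to that over all tested genes (25.5%). FT, with 5 counts over the cdk8-1 libraries and 22 over the Col-0 libraries, and TFL1, with 8 and 33, did not pass the filter on low counts. MAF5, a relative of FLC, had 3.79, 4.70 and 3.27 CPM in cdk8-1, against 1.04, 1.00 and 0.800 CPM in Col-0 (4.11-fold higher, adjusted p = 1.27e-07). SMZ, an AP2-type repressor of flowering, had 2.15, 1.71 and 1.68 CPM in cdk8-1, against 0.467, 0.552 and 0.350 CPM in Col-0 (4.0-fold higher, adjusted p = 3.07e-06). Every cdk8-1 library was above every Col-0 library in both. SPL4, a promoter of flowering, rose by 0.92 ± 0.17. FLC itself had 1.75, 2.58 and 2.55 CPM in cdk8-1, against 1.505, 1.25 and 1.65 CPM in Col-0. It did not pass the test (0.64 ± 0.24, adjusted p = 0.061) but was called with total counts (0.71, adjusted p = 0.0327) and without cdk8-1 replicate 1 (0.80, adjusted p = 0.0282). FLC was also called without a filter on low counts, with limma at either pseudocount, with a replicate block and with models of 2 groups. Of 18 flowering genes 3 rose and 2 fell (7 and 2 with total counts), and the repressor genes MAF1, MAF2, MAF3, MAF4, SVP and TEM1 did not pass the test. Other cyclins and cyclin-dependent kinases passed the test in 6 of 26 cases, 4 up and 2 down, no larger a share than over all tested genes: the mitotic kinases CDKB1;1 and CDKB1;2 rose by 0.74 ± 0.13 and 0.62 ± 0.16, and CYCD1;1 fell by 0.52 ± 0.07.

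Some genes were at or near 0 counts in one genotype, 4 of the 189 and 15 of the 471, with 3 counts or fewer over the group. They were chosen after their values were seen. CML30, a calmodulin-like gene on chromosome 2, had 0 counts over the 3 cdk8-1 libraries, against 48 over the Col-0 libraries, so it was at least 16.3-fold lower (a floor of 3 counts over the group). It also had 0 counts in jazDcdk8-1, against 215 in jazD, at least 77.9-fold lower. AT3G53980, a lipid-transfer protein gene, had 3 counts in cdk8-1 and 71 in Col-0, and 0 in jazDcdk8-1 and 23 in jazD. For these the loss of CDK8 went with near absence in both backgrounds. AT5G32950, a pseudogene, had 0 counts in cdk8-1 and 238 in Col-0 (at least 80.7-fold lower), and AT4G08093, a transcribed pseudogene, had 1 and 108. Both had 0 counts in jazD and in jazDcdk8-1, so they were at 0 or 1 count in every mutant line, with or without CDK8. AT5G07571, an oleosin family gene, had 45 counts in cdk8-1 and 0 in Col-0 (at least 14.8-fold higher; not called by DESeq2, adjusted p = 0.0991).

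Reads shared between near-identical copies bear on the largest fitted rise among these genes. AT1G24800, an F-box gene, had 159.33, 0.04 and 63.87 expected counts in cdk8-1, against 0, 0 and 0 in Col-0, and its fitted change was 9.18 log2 (adjusted p = 0.0174). The sum over it and its copies AT1G24881, AT1G25055, AT1G25150 and AT1G25211 was 1828, 1807.01 and 1726 in cdk8-1, against 1780.99, 1710 and 1750 in Col-0. The summed level thus overlapped between genotypes, and the call of AT1G24800 is uncertain. Without Col-0 replicate 2 or cdk8-1 replicate 1 the call was lost (adjusted p = 0.0509 and 0.0889). DESeq2 did not make it (adjusted p = 0.137), nor did limma on log2(TPM + 1) (adjusted p = 0.0917) or log2(TPM + 0.1) (adjusted p = 0.101).

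The genes that changed 2-fold were spread over the genome with one dense stretch. Per chromosome 3.38% to 3.55% of tested genes changed at least 2-fold, and within 1 Mb of CDK8 it was 3.08%. Of 111 bins of 1 Mb with at least 20 tested genes, the bin from 6 to 7 Mb on chromosome 2 held most, with 12 of 78 (15.4%, against 3.47% over all), 11 lower and 1 higher. This bin was picked after its values were seen. Its lower genes include PR1, CML30, FUT4 (a fucosyltransferase gene), AT2G15042 and AT2G15880 (leucine-rich repeat genes) and the receptor-like protein genes RLP18 and RLP19. RLP19 had 1195 counts in cdk8-1 and 3727 in Col-0, and 1854 in jazDcdk8-1 and 4714 in jazD. RLP18 had 51 counts in cdk8-1 and 263 in Col-0. Of the 11 lower genes 10 were also called lower in jazDcdk8-1 than in jazD. Both mutant lines are named for the same cdk8-1 allele, and whether other differences of the cdk8-1 line play a part in this bin was not tested.

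The comparison of jazDcdk8-1 with jazD uses other libraries and shows how far these changes return. Whether these lines differ by more than the cdk8-1 allele was not tested. Some genes between 17 and 24 Mb on chromosome 5, described below, stand apart in jazD, so the counts here may hold more than effects of CDK8. There 3213 genes were higher (16.9%) and 3612 lower (19.0%), and 298 (1.56%) and 850 (4.46%) changed at least 2-fold. Of the 189 genes at least 2-fold higher in cdk8-1, 124 were called higher in jazDcdk8-1 than in jazD (65.6%) and 11 lower. Of the 471 at least 2-fold lower, 360 were called lower (76.4%) and 4 higher. At 2-fold in both, 87 genes were shared on the higher side, 46.0% of the cdk8-1 list and 29.2% of the jazDcdk8-1 list, and 300 on the lower side, 63.7% and 35.3%. The median change of the 189 was 1.29 log2 in cdk8-1 and 0.97 in jazDcdk8-1, and that of the 471 was -1.47 and -1.46. Of all called genes, 1118 of 2229 higher (50.2%) and 1505 of 2624 lower (57.4%) were called the same way, with 152 and 169 called the opposite way.

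**Figure D5:**
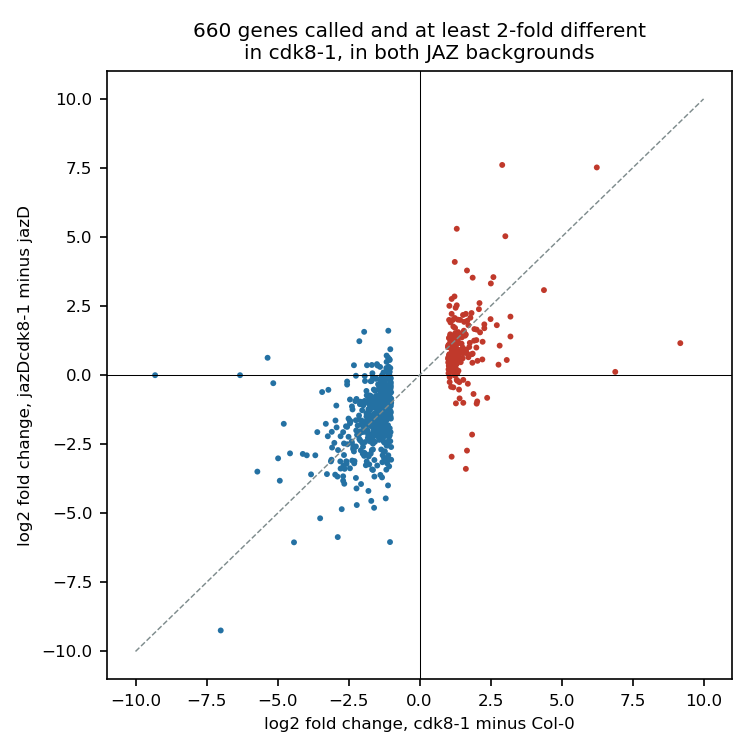
Log2 fold change in cdk8-1 against Col-0 (horizontal axis) and in jazDcdk8-1 against jazD (vertical axis) for the genes at least 2-fold higher (red) or lower (blue) in cdk8-1; the dashed line marks equal changes. Of the 189 higher genes 88.4% lie above 0 on the vertical axis, and of the 471 lower genes 93.8% lie below 0.

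The gene groups shared their calls between the backgrounds to unequal degrees; differences between lists were not tested. Of 27 salicylic acid genes 12 were called lower in both backgrounds, 5 in cdk8-1 against Col-0 alone and 5 in jazDcdk8-1 against jazD alone. Of 6 camalexin genes 5 were called lower in both, and of 15 MYC-branch genes 12. FLS1 (1.00, adjusted p = 1.1e-10) and MYB111 (1.56, adjusted p = 9.16e-07) were higher in jazDcdk8-1 too, but of 23 flavonoid genes 4 rose and 12 fell there, and 3 were called higher in both. Sulfur genes rose in 2 and fell in 9 of 17, and aliphatic glucosinolate genes rose in 15 and fell in 3 of 27. The test of the difference between the backgrounds called 3154 genes (16.5%), with 59 of the 189 and 108 of the 471 among them. APR3 shows one such turn: 0.98 in cdk8-1 against Col-0 and -0.99 in jazDcdk8-1 against jazD.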

How the data were processed

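RNA from pools of about 20 rosettes was sequenced in 3 libraries for each of 4 genotypes. The authors deposited expected counts per gene made with RSEM 1.2.25 against TAIR10, per the submitters' processing notes. They also deposited TPM, which is scaled to gene length and library total, per the file headers. The aligner, the annotation release and the use of strand are not given in the sources used here.

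Of 33323 genes, 3.42% of expected counts were not whole, and all were rounded. All 12 libraries were fitted in 1 model with edgeR 4.0.16 in R 4.3.3 (quasi-likelihood test, TMM scaling, filterByExpr), leaving 19059 genes, and p-values were adjusted by Benjamini-Hochberg over these, with 0.05 as the threshold. The spread is that between 3 pools per genotype. Standard errors are the log2 fold change divided by the root of F and so approximate. Counts were simulated for all 12 libraries at their own depth, from gene means over the 12 libraries and the fitted trend of the spread. Only genes averaging above 2 CPM were changed, in the simulated cdk8-1 libraries. Of these, 92.5% of 67 genes changed 1.5-fold, 100% of 67 changed 2-fold and 100% of 66 changed 4-fold were called. In the same simulation 5 unchanged genes were called among 18889 tested. Spread of single genes around the trend was not simulated, so this count does not carry over to the real data. The genes that changed 2-fold in cdk8-1 had medians of 1.86 CPM (higher) and 1.43 CPM (lower). Recovery of changes at such low levels was not simulated.

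The comparison, the gene lists and the rule for naming genes were chosen with earlier results of these data known. The rule took CDK8, its module, AOX1A, PDF1.2A, PR1, FLC and BHLH100, up to 4 called genes per list with at least 1 CPM, the 12 largest rises and 12 largest falls at 5 CPM or more without overlap of libraries, and 5 genes each way for the difference between backgrounds. VSP2, LOX2, CHS, LHY, RBCS1A, ACT, PDF1.3, FMO1, AT2G38240, the flowering repressors that did not pass, the 19 genes near 0, the chromosome 2 bin and the 17 trace genes fall outside that rule or were chosen after their values were seen. The same holds for ICS1, PR5, NPR1, ASA2, FER3, FER4, BHLH38 and FIT. Gene names and positions came from RefSeq TAIR10.1, which held 32835 of the IDs. Alternatives were RLE and total-count scaling, other filters, DESeq2 1.42.0, limma 3.58.1 on log2(TPM + 1) and log2(TPM + 0.1), a replicate block, removal of the 20 most abundant genes, models of 2 groups and each library left out. The same replicate numbers do not pair the libraries.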

Additional observations from a re-analysis of the deposited data

Results flagged for a closer look

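In 10 genes the effect of cdk8-1 with jazD minus that with intact JAZ genes was among the largest, by edgeR's test of that difference with Benjamini-Hochberg adjustment. Mean CPM are given in the order cdk8-1, Col-0, jazDcdk8-1 and jazD.

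The effect was higher in the jazD background in 5 genes. AT5G45490, a nucleoside triphosphate hydrolase gene, differed by 9.83 log2 (adjusted p = 3.05e-17), with 42.6, 66.1, 56.3 and 0.0987 CPM. AT5G49440, of unknown function, differed by 9.16 (adjusted p = 1.79e-16), with 121.6, 82.0, 96.9 and 0.118 CPM. FUM2, the cytosolic fumarase gene, differed by 3.78 (adjusted p = 5.58e-20), with 132.0, 238.6, 257 and 33.9 CPM. In these 3 genes jazD is the genotype that stands apart, and all 3 lie between 17 and 24 Mb on chromosome 5. Whether the jazD line differs from the other genotypes there by more than its JAZ mutations was not tested, so these 3 differences cannot be read as effects of CDK8 alone. MAPR2, a membrane steroid-binding protein gene, differed by 2.71 (adjusted p = 0.000897), but its fall in cdk8-1 (-1.10, adjusted p = 0.0242) was lost without Col-0 replicate 2 (-0.76, adjusted p = 0.165). It was also lost without cdk8-1 replicate 3 (-0.86, adjusted p = 0.121) and without cdk8-1 replicate 2 (-1.13, adjusted p = 0.0525). AT3G57880 differed by 2.67 (adjusted p = 6.44e-12), with 3.81, 18.9, 22.2 and 17.3 CPM, and here cdk8-1 is the genotype that stands apart.

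The effect was lower in the jazD background in the other 5. AT2G43590, a chitinase gene, differed by -5.00 (adjusted p = 1.76e-09), with 4.67, 9.69, 10.4 and 679.6 CPM. AT3G15356, a legume lectin gene, differed by -3.27 (adjusted p = 6.18e-10), with 11.7, 26.9, 73.7 and 1625 CPM. Both carried the trace in cdk8-1 replicate 3. SAG21, a late embryogenesis protein gene, differed by -2.96 (adjusted p = 5.91e-08), GLL23 by -2.18 (adjusted p = 4.19e-13) and AT3G56200, an amino acid transporter gene, by -2.07 (adjusted p = 1.73e-11). In cdk8-1 against Col-0 these 3 rose, by 0.86, 0.53 and 0.41 log2.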

How the results depend on the processing

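No called gene named by the rule changed direction in any setting, but the balance of all calls turned from more lower to more higher genes with total counts and with limma. Starch genes turned likewise, with 8 higher and 11 lower, against 9 and 5 with total counts. The counts of called genes moved most with scaling: 3922 genes were higher with total counts, 3913 with limma on log2(TPM + 0.1) and 3947 with limma on log2(TPM + 1), which called 1739 lower, 84 at least 2-fold higher and 137 at least 2-fold lower. Higher genes made up 69.4% and 69.0% of the calls with limma at pseudocounts of 1 and 0.1. A pseudocount shrinks the change of low genes, and total counts and limma moved the median of all genes by 0.07 to 0.09 log2. With 1 library left out, 1769 to 1947 genes were higher and 2245 to 2346 lower, 181 to 199 were at least 2-fold higher and 442 to 486 at least 2-fold lower, 2639 to 3036 were called for the difference between backgrounds and 2305 to 2454 were called the same way in both. Deviations of libraries with the same replicate number correlated at -0.031, -0.066 and -0.023, so the numbers pair nothing; with the replicate block 2118 were higher, 2560 lower, 187 and 473 at least 2-fold, 3021 differed between backgrounds and 2539 were called the same way in both. Of 164 called genes named by the rule, 0 to 12 lost the call in any setting. The sign of the median turned with total counts for other Mediator subunits, jasmonate synthesis, indole glucosinolate, tryptophan, cold, gibberellin and senescence genes. Depth limits the genes near 0 counts, and 3 pools per genotype limit every comparison.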
